A study of Brassica carinata with 12 samples.

Results

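Steadily expressed genes of the C subgenome were described in anthers of synthetic Brassica carinata, a mustard that joins the B genome of B. nigra with the C genome of B. oleracea. A gene was chosen where its CPM (count over the library's column total, times 1000000) was at least 10 in each of 12 libraries, where its highest CPM was at most 2 times its lowest, and where it was under 200 CPM in at least 1 library. Its ID also had to place it on a C chromosome other than C03. These limits were met by 2930 genes of the 97149 in the table, or 6.28% of the 46642 genes that the IDs place on C01, C02 and C04 to C09. The choice used every library, so the differences between groups given here are a description, and nothing about the chosen genes is tested with them.

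RNA-seq was done on anthers of 2 forms at 2 stages, with 3 libraries in each of the 4 groups. Haploid plants had genotype BC, came from B. oleracea var. alboglabra crossed with B. nigra as the pollen parent, and carried 1 set of each genome. Tetraploid plants had genotype BBCC and were obtained by ovule culture with colchicine. Libraries named for meiosis (sporogenesis) came from tissue called young anther, and those named for mitosis (gametogenesis) from tissue called anther, while the extraction text speaks of floral buds. The labels give the same cross for both forms, which thus differ in genome dose and also in the culture and colchicine step, and these cannot be told apart. Whether the 3 libraries of a group are separate plants is not said in the labels, so the spread between them may be technical. The labels give neither batch nor date.

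Genes with a steady transcript level across conditions are often called housekeeping genes, and many serve basal functions such as protein turnover, splicing or vesicle transport in most plant cells. In an allopolyploid each such gene usually has a counterpart, or homoeolog, on the other subgenome. Meiosis in the anther makes the microspores, and the mitoses that follow make the pollen, while the anther wall and tapetum around them also contribute RNA. In such bulk tissue, fewer cells of a type and less RNA per cell cannot be told apart. The files do not pair the IDs with gene names, so neither the roles of the chosen genes nor the tissue's marker genes could be examined. The sources used here do not give the counting of reads that fit both homoeologs, nor the strand setting, so levels of near-identical or overlapping genes are uncertain.

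Library totals lay between 15769687 and 16793767 counts. A gene at the lowest level allowed was therefore still read at least 158 times, and the median over the 2930 genes and 12 libraries was 443 counts. The 100 genes with the most counts took 15.7% of counts in haploid meiosis, 12.2% in tetraploid meiosis, 19.96% in haploid mitosis and 16.2% in tetraploid mitosis. Such a difference changes every other gene's CPM. The TMM factors of edgeR, which rescale library totals for differences in composition, were 1.06 to 1.07 at meiosis and 0.922 to 0.952 at mitosis. The factors were lower in groups where the share of those 100 genes was larger, with overlap between haploid and tetraploid libraries at meiosis. The steps were unequal, and the cause was not tested. Haploid meiosis, at 15.7%, had factors of 1.06 to 1.07, and tetraploid mitosis, at 16.2%, had 0.949 to 0.952. CPM is on column totals below unless TMM is named, while fitted log2 fold changes use TMM. The difference between the scales was small for ploidy, at -0.01 log2 at meiosis and -0.04 at mitosis. For mitosis against meiosis it was -0.20 log2 in the haploid and -0.17 in the tetraploid, with column totals giving the lower value.

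Between 296 and 421 steady genes were found on each of the 8 C chromosomes. C01 had 421, C05 420, C07 401, C06 391, C04 365, C02 326, C09 310 and C08 296. To set these counts against the genes that could have been chosen, they were divided by the 5845 genes with at least 10 CPM in every library. Steady genes made up 50.1% of them, and the share per chromosome ran from 45.9% on C01 and 48.1% on C02 to 52.9% on C09. Of the other 2915 broadly expressed genes, 2885 passed the limit of 2 times and 30 stayed within it but had at least 200 CPM everywhere. For 514 genes a single library put the ratio over the limit.

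The B subgenome gave a similar share under the same limits, with 2294 of 4700 broadly expressed genes, or 48.8%. C03, which the choice leaves out, gave 52 of 345, or 15.1%. The median ratio of highest to lowest CPM over broadly expressed genes was 1.990 on the other C chromosomes together and 2.82 on C03. The 52 steady C03 genes had median log2 fold changes, haploid against tetraploid, of 0.39 at meiosis and 0.50 at mitosis. On the other 8 C chromosomes these medians over the steady genes stayed between -0.02 (C09) and 0.05 (C02) at meiosis, and between -0.01 and 0.04 at mitosis. These shares describe the genes chosen by the ratio itself, and no test of chromosome against chromosome was made.

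**Figure D1:**
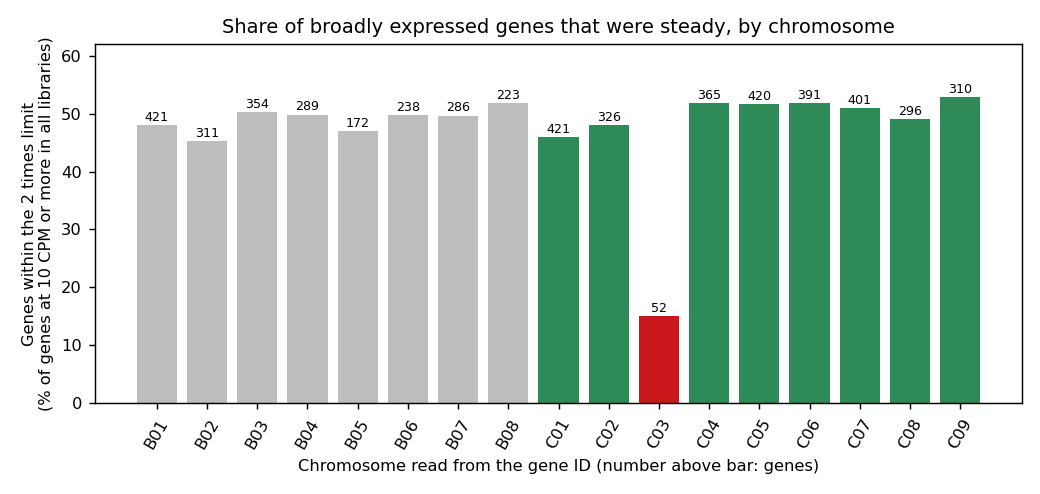
Share of broadly expressed genes (at least 10 CPM in all 12 libraries) that stayed within 2 times and were under 200 CPM in at least 1 library, in percent, for each chromosome, with the number of such genes above each bar; grey bars are B chromosomes, green bars the 8 C chromosomes described and the red bar C03. The green bars lie between 45.9% and 52.9%, and C03 lies at 15.1%.

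Within a group, the 3 libraries agreed closely for the steady genes. The highest CPM was a median of 1.11 times the lowest within a group, with a 95th percentile of 1.29. Over all 12 libraries the ratio ran from 1.102 to just under 2, with a median of 1.63. It was at most 1.3 for 157 genes (5.36%) and at most 1.5 for 882 genes (30.1%). On the log2 TMM scale, the SD within groups had a median of 0.0945 and the SD of the 4 group means a median of 0.223. The second exceeded the first for 2646 genes (90.3%). On column totals, the scale of the choice, the medians were 0.0943 and 0.233, and the second exceeded the first for 2680 genes (91.5%). Both scales gave this order for 2516 genes (85.9%). The variance within groups was a median of 2.003 times the variance expected from counting alone.

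**Figure D2:**
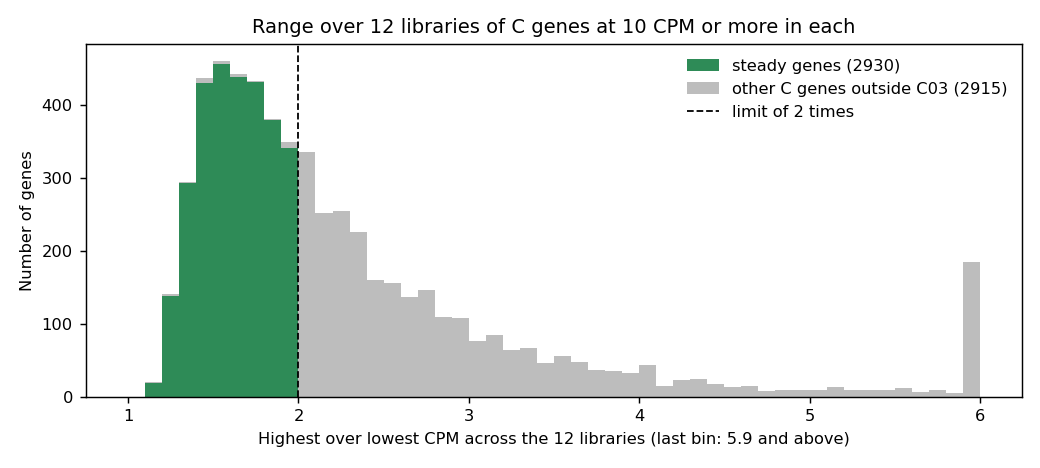
Number of C genes outside C03 at 10 CPM or more in every library (vertical axis) by the ratio of their highest to lowest CPM over the 12 libraries (horizontal axis), with steady genes in green, the others in grey and the limit as a dashed line. The ratios run through the limit of 2 times without a gap, with 341 steady genes from 1.9 to 2 times and 336 other genes under 200 CPM in at least 1 library from 2 to 2.1 times.

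The smallest ratio belonged to BcaC02g12339, at 1.102. Its CPM was 99.5, 102 and 107 in haploid meiosis, 102, 107 and 98.9 in tetraploid meiosis, 109, 107 and 104 in haploid mitosis, and 108, 104 and 105 in tetraploid mitosis. The libraries of all 4 groups overlapped. Its fitted log2 fold changes were 0.01 (SE 0.05) and 0.05 (SE 0.05) for haploid against tetraploid at meiosis and mitosis. For mitosis against meiosis they were 0.25 (SE 0.05) in the haploid and 0.22 (SE 0.05) in the tetraploid, which is near the difference between the 2 scales.

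BcaC06g31021 had the next ratio, 1.11. It had 102, 94.5 and 93.4 CPM in haploid meiosis, 96.6, 98.8 and 102 in tetraploid meiosis, 99.4, 99.0 and 104 in haploid mitosis, and 96.1, 101 and 101 in tetraploid mitosis. On column totals these groups overlapped too. Its fitted log2 fold changes for mitosis against meiosis were 0.26 (SE 0.05) in the haploid and 0.17 (SE 0.05) in the tetraploid. These are again near the difference between the scales. On TMM-scaled sizes its ratio was 1.28.

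BcaC06g31800, at a ratio of 1.15, had 42.5, 43.5 and 41.4 CPM in haploid meiosis, 42.3, 43.9 and 43.9 in tetraploid meiosis, 42.0, 38.6 and 38.1 in haploid mitosis, and 39.8, 40.03 and 39.999 in tetraploid mitosis. On column totals the tetraploid meiosis libraries lay above all mitosis libraries, by a small margin. On TMM-scaled sizes its ratio was 1.17, and its log2 fold changes for mitosis against meiosis were 0.10 (SE 0.07) in the haploid and 0.05 (SE 0.07) in the tetraploid, the other direction. Its ratio thus hardly moved with the scale, while that of BcaC02g12339 was 1.28 on TMM-scaled sizes.

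Which genes were steadiest depended on the scale. Of the 157 genes within 1.3 times on column totals, 53 (33.8%) were also among the 183 within 1.3 times on TMM-scaled sizes. BcaC05g24907 had a ratio of 1.23 on column totals and 1.09 on TMM-scaled sizes, the lower of these on the scale the choice did not use. In all, 288 of the 2930 genes (9.83%) exceeded 2 times on TMM-scaled sizes.

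The steadiest genes of the other chromosomes had ratios from 1.17 to 1.22. BcaC05g26170, on C05, had group means of 26.0 ± 0.786 CPM in haploid meiosis, 24.0 ± 1.16 in tetraploid meiosis, 24.6 ± 0.179 in haploid mitosis and 24.6 ± 1.71 in tetraploid mitosis (SD, n = 3 each). BcaC08g47601, on C08, had 103 ± 3.88, 101 ± 2.07, 102 ± 6.38 and 93.5 ± 2.31 CPM in the same order. In BcaC08g47601 only the highest tetraploid mitosis library reached the lowest haploid mitosis library, and the means of the other 3 groups were 101 to 103 CPM.

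Levels between genes are compared per length, as the authors' deposited FPKM (reads scaled to transcript length and library depth). The mean FPKM of the steady genes had a median of 19.8 and an interquartile range of 11.3 to 38.5, against a median of 33.5 for the other broadly expressed C genes outside C03. By chromosome the median FPKM ran from 17.4 on C06 to 22.5 on C09. Counts divided by FPKM, scaled to depth, give an apparent transcript length, whose median was 1462 bases for the steady genes, 1202 for the other broadly expressed genes and 1126 for all tested genes of these chromosomes. For the steady genes it ran from 60.6 to 540860 bases, with 5th and 95th percentiles of 467 and 4151. The ends are not plausible lengths, so for some genes the deposited counts and FPKM do not match. The lowest mean FPKM of a steady gene was 0.00306. At equal FPKM a longer transcript collects more counts and so reaches 10 CPM more easily. The part of length in these shares was not tested.

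Most of the steady genes were at low or middle levels. By mean CPM, 873 lay from 10 to 20, 1199 from 20 to 40, 626 from 40 to 80, 189 from 80 to 160 and 43 at 160 or more. Steady genes made up 71.1%, 49.0%, 45.2%, 33.9% and 18.9% of broadly expressed genes in these classes. In the lowest class the minimum of 10 CPM in every library narrows the ratios that a gene can have, and the highest class loses genes to the limit of 200 CPM. The SD within groups on the log2 TMM scale fell with level by class median, from 0.122 in the lowest class through 0.0967, 0.0730 and 0.0559 to 0.0432 in the highest.

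The gene with the most counts was BcaC09g50840. It had 199, 196 and 201 CPM in haploid meiosis, 239, 242 and 247 in tetraploid meiosis, 289, 273 and 293 in haploid mitosis, and 329.6, 320.5 and 322 in tetraploid mitosis. No group overlapped another, and the levels stepped up from haploid meiosis to tetraploid mitosis. At the other end, BcaC05g30056 had group means of 11.8 ± 1.21, 11.9 ± 1.52, 10.8 ± 0.114 and 10.98 ± 0.862 CPM (SD, n = 3 each) in the same order of groups, and its groups overlapped.

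The steady genes together held 11.3% ± 0.0415 of counts in haploid meiosis and 11.5% ± 0.0320 in tetraploid meiosis. At mitosis they held 10.5% ± 0.0569 in the haploid and 10.8% ± 0.0516 in the tetraploid (SD, n = 3 each). The groups did not overlap, and the tetraploid was higher at each stage. With C03 counts left out of the total, the shares in the same order were 11.8%, 11.8%, 11.1% and 11.1%, so the difference between the forms was 0.01 percentage points or less while that between the stages remained.

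**Figure D3:**
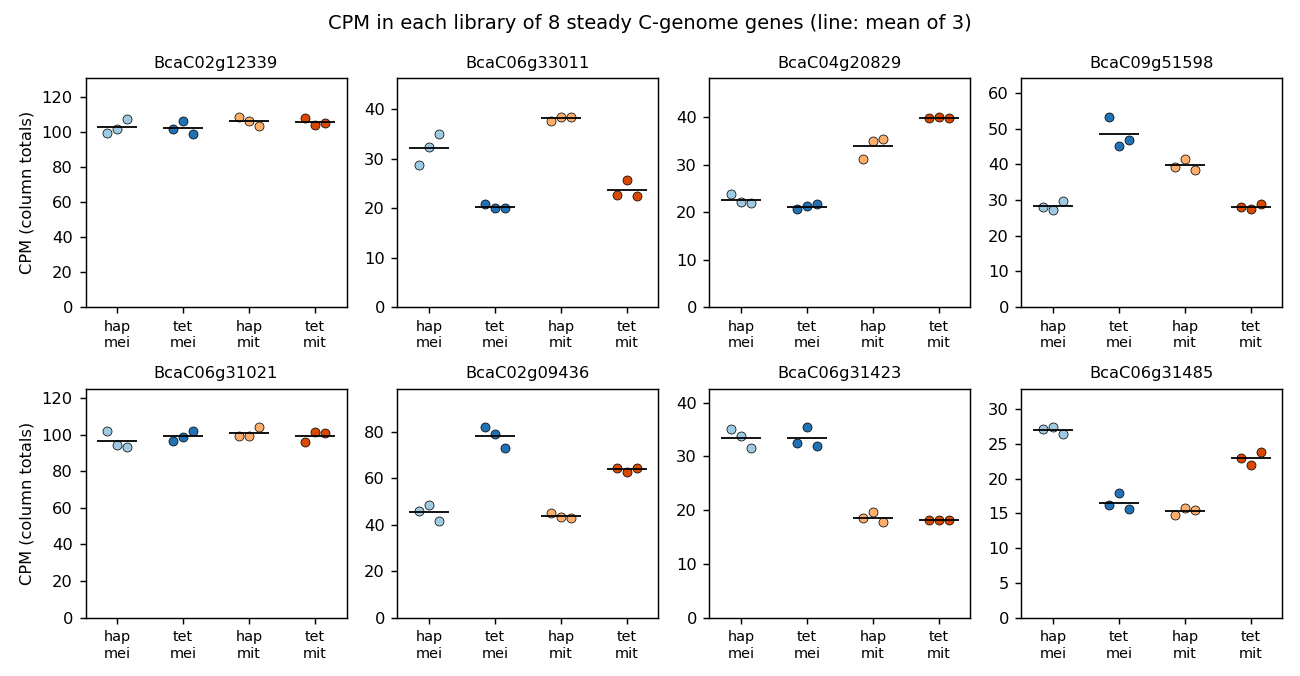
CPM on column totals in each of the 12 libraries for 8 steady genes named in the text, by group (hap and tet for the forms, mei and mit for the stages), with a point for each library and a line for the mean of 3. BcaC02g12339 stays from 98.9 to 109 CPM, while genes close to the limit of 2 times separate by ploidy, by stage or by both.

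Haploid and tetraploid anthers were compared at each stage to describe the small shifts with ploidy. At meiosis the fitted log2 fold changes of the steady genes, haploid against tetraploid, had a median of 0.01 and an interquartile range of -0.18 to 0.21, and ran from -0.80 to 0.92. At mitosis the median was 0.02, the interquartile range was -0.18 to 0.21 and the range was -0.87 to 0.96. Medians over all 51860 tested genes were 0.00 and 0.02. The median SE was about 0.085 per gene. TMM centres the values and the limit of 2 times bounds them on both sides, so a median near 0 is no finding.

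By the quasi-likelihood test of edgeR, with p-values adjusted by Benjamini-Hochberg over all tested genes, 731 of the 2930 genes were called higher in the haploid at meiosis and 702 lower, where 19.5% and 18.8% of all tested genes were called. At mitosis 760 were called higher and 682 lower, where 23.3% and 24.4% of all tested genes were called. Nothing is read from these counts, since the choice used the same libraries. The larger side at mitosis turned with library totals in place of TMM, to 634 higher and 777 lower. Of all tested genes, 21.3% and 26.0% were then called. With DESeq2 the larger side turned to 560 and 719, where 16.0% and 20.5% of all 62122 genes in that fit were called. By class of mean CPM from lowest to highest, the median log2 fold change at meiosis was 0.03, 0.03, -0.03, -0.10 and -0.13, so the upper classes, of 189 and 43 genes, lay on the tetraploid side by median. At mitosis the class medians were 0.03, 0.02, -0.01, -0.05 and -0.0047. The other broadly expressed C genes outside C03 had medians of -0.17 at meiosis and -0.04 at mitosis.

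BcaC09g48402 was the most haploid-biased steady gene at meiosis. It had 31.1, 30.5 and 28.6 CPM in haploid meiosis and 15.6, 16.7 and 15.7 in tetraploid meiosis, a log2 fold change of 0.92 (SE 0.09). At mitosis it had 28.2, 27.7 and 27.4 CPM in the haploid and 21.3, 23.3 and 25.1 in the tetraploid, 0.29 (SE 0.08). The forms did not overlap at either stage, and the tetraploid meiosis libraries were the low ones.

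BcaC04g20099 had 35.02, 33.3 and 33.5 CPM in haploid meiosis against 19.1, 17.7 and 20.04 in tetraploid meiosis, a log2 fold change of 0.85 (SE 0.08). At mitosis its forms overlapped, at 29.9 ± 1.11 and 30.5 ± 0.525 CPM (SD, n = 3 each), with a log2 fold change of 0.01 (SE 0.08). In BcaC04g20099, tetraploid meiosis was therefore the only low group.

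On the tetraploid side at meiosis, BcaC07g41199 had 31.9, 29.1 and 28.2 CPM in the haploid and 52.5, 47.9 and 55.9 in the tetraploid, a log2 fold change of -0.80 (SE 0.08). BcaC05g24668 had 49.7, 54.8 and 53.1 CPM against 94.5, 92.7 and 86.9, a log2 fold change of -0.79 (SE 0.06). Both sets of libraries were apart. At mitosis BcaC07g41199 kept the direction, at -0.31 (SE 0.08), and BcaC05g24668 was at -0.05 (SE 0.06).

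At mitosis BcaC05g27819 was highest on the haploid side. It had 60.3, 61.1 and 57.9 CPM in the haploid and 31.8, 31.5 and 31.2 in the tetraploid, a log2 fold change of 0.96 (SE 0.06), while at meiosis the value was -0.14 (SE 0.06). BcaC05g25494 had 28.0, 27.4 and 29.3 CPM against 14.7, 15.6 and 14.7, a log2 fold change of 0.95 (SE 0.09). In both genes tetraploid mitosis was the lowest group, and no library of it reached another group's.

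BcaC06g32045 lay on the tetraploid side, with 195, 189 and 197 CPM in haploid mitosis and 378, 369 and 343 in tetraploid mitosis, a log2 fold change of -0.87 (SE 0.04). Its haploid libraries at meiosis, 197, 197 and 190.0 CPM, overlapped those at mitosis, and its tetraploid meiosis libraries stood between, at 238, 242 and 247. BcaC07g39890 had 41.7, 40.02 and 41.2 CPM in haploid mitosis and 73.0, 73.8 and 71.9 in tetraploid mitosis, a log2 fold change of -0.79 (SE 0.06). At meiosis BcaC07g39890 had 58.4 ± 4.56 and 57.3 ± 1.65 CPM (SD, n = 3 each) in the 2 forms, which overlapped.

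Some genes held a ploidy shift in the same direction at both stages. BcaC08g43618 had 38.3, 39.7 and 40.8 CPM in haploid meiosis and 23.6, 25.1 and 24.5 in tetraploid meiosis, then 40.3, 38.4 and 40.8 in haploid mitosis and 25.3, 24.9 and 26.4 in tetraploid mitosis. Its log2 fold changes were 0.70 (SE 0.07) and 0.68 (SE 0.07). BcaC06g33011 gave 0.67 (SE 0.08) and 0.73 (SE 0.08), from 32.1 ± 3.15 against 20.3 ± 0.389 CPM at meiosis and 38.2 ± 0.517 against 23.6 ± 1.81 CPM at mitosis (SD, n = 3 each). All haploid libraries of both genes were above all tetraploid ones.

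In the opposite direction, BcaC02g09436 had 45.8, 48.5 and 41.5 CPM in haploid meiosis, 81.9, 79.0 and 73.1 in tetraploid meiosis, 45.2, 43.1 and 42.9 in haploid mitosis and 64.2, 62.5 and 64.5 in tetraploid mitosis. Its log2 fold changes were -0.78 (SE 0.06) and -0.50 (SE 0.06). BcaC09g47829 gave -0.52 (SE 0.05) and -0.71 (SE 0.05), from 83.0 ± 4.86 against 119 ± 2.52 CPM and 74.2 ± 0.583 against 124 ± 7.38 CPM (SD, n = 3 each). The haploid libraries were below the tetraploid ones in both genes.

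Across the 2930 genes, the ploidy shift at meiosis and that at mitosis, which share no library, were related by a Pearson's r of 0.26 (Spearman's rho 0.27). Genes are not independent replicates, and the value is a description. By call, 266 genes were higher in the haploid at both stages, 285 lower at both, 194 opposite and 800 called at neither. Over all tested genes these shares were 9.69%, 7.99%, 5.41% and 37.0%, and over the steady genes 9.08%, 9.73%, 6.62% and 27.3%.

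**Figure D4:**
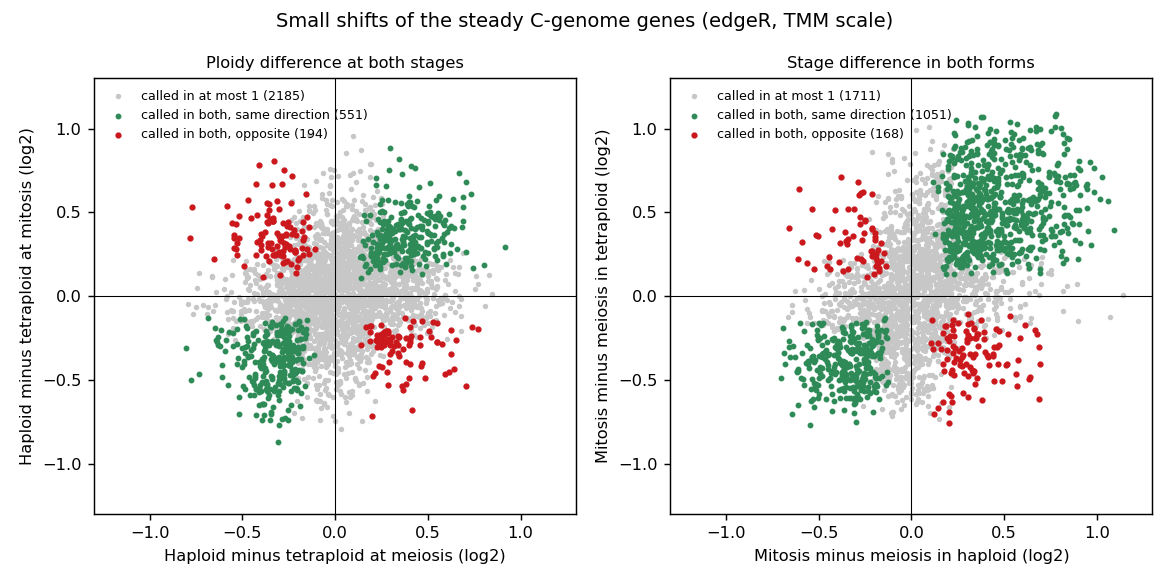
Fitted log2 fold changes of the 2930 steady genes, 1 point a gene, with the ploidy difference at meiosis against that at mitosis (left) and the stage difference in the haploid against that in the tetraploid (right); green points were called in both comparisons in 1 direction, red points in opposite directions and grey points in at most 1. The left cloud is centred close to 0 and weakly elongated (Pearson's r 0.26 across genes), and the right cloud is more elongated (0.54).

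Mitosis was compared with meiosis in each form to describe the shift with stage. In the haploid the fitted log2 fold changes of the steady genes had a median of 0.08 and an interquartile range of -0.13 to 0.31, and ran from -0.70 to 1.14. In the tetraploid the median was 0.09, the interquartile range was -0.20 to 0.38 and the range was -0.77 to 1.09. On column totals, the scale of the choice, the medians were -0.12 and -0.08. The direction of the stage median thus turned with the scale, and the sign differed between scales for 709 genes (24.2%) in the haploid and 457 (15.6%) in the tetraploid.

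By the same test, 1077 genes were called higher at mitosis and 582 lower in the haploid, where 33.3% and 30.4% of all tested genes were called. In the tetraploid 1180 were called higher and 780 lower, where 37.3% and 34.7% of all tested genes were called. With library totals in place of TMM the counts were 510 and 1208 in the haploid, where 26.9% and 38.3% of all tested genes were called. In the tetraploid they were 785 and 1182, where 32.7% and 40.1% of all tested genes were called, so the larger side turned over all tested genes as well. The share of higher among called genes moved from 64.9% to 29.7% in the haploid and from 60.2% to 39.9% in the tetraploid. With median-of-ratios factors and with DESeq2 the higher calls stayed the larger side in both forms, as with TMM. The direction of these counts therefore depends on the scaling, and only values of genes that stand clear of it are described by direction below.

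Among genes higher at mitosis, BcaC08g43028 had 22.5, 22.5 and 23.4 CPM in haploid meiosis and 44.7, 43.5 and 43.0 in haploid mitosis, a log2 fold change of 1.14 (SE 0.08). In the tetraploid it had 25.5, 31.4 and 29.5 CPM at meiosis and 26.1, 24.6 and 26.3 at mitosis, which overlapped, with a log2 fold change of 0.00 (SE 0.08). BcaC08g47283 had 82.7, 74.4 and 77.9 CPM in haploid meiosis and 142, 145 and 148 in haploid mitosis, a log2 fold change of 1.09 (SE 0.05). In the tetraploid BcaC08g47283 went from 119 ± 6.70 to 139 ± 6.16 CPM (SD, n = 3 each), 0.39 (SE 0.05).

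Among genes lower at mitosis, BcaC01g02977 had 296, 302 and 303 CPM in haploid meiosis, 295, 295 and 287 in tetraploid meiosis, 161, 162 and 159 in haploid mitosis, and 187, 184 and 183 in tetraploid mitosis. Its log2 fold changes were -0.70 (SE 0.04) in the haploid and -0.49 (SE 0.04) in the tetraploid. The meiosis libraries were all well above the mitosis libraries. BcaC02g08939 had 44.6, 46.7 and 49.3 CPM in haploid meiosis and 25.7, 25.1 and 24.9 in haploid mitosis, a log2 fold change of -0.69 (SE 0.07).

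Some genes held a stage shift in the same direction in both forms. BcaC04g20829 had 23.8, 22.2 and 22.0 CPM in haploid meiosis, 20.6, 21.2 and 21.6 in tetraploid meiosis, 31.1, 34.96 and 35.5 in haploid mitosis, and 39.8, 40.2 and 39.8 in tetraploid mitosis. Its log2 fold changes were 0.78 (SE 0.08) in the haploid and 1.09 (SE 0.08) in the tetraploid. BcaC06g31423 went the other way, with 35.02, 33.8 and 31.6 CPM in haploid meiosis, 32.6, 35.4 and 32.0 in tetraploid meiosis, 18.5, 19.7 and 17.7 in haploid mitosis, and 18.3, 18.1 and 18.2 in tetraploid mitosis. In both genes the stages were apart in every library.

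Of the pair next in order, BcaC07g41412 was higher at mitosis, with log2 fold changes of 0.77 (SE 0.09) and 1.07 (SE 0.09). BcaC02g09611 was lower, with 33.8 ± 1.27 and 37.4 ± 0.204 CPM at meiosis and 20.1 ± 1.26 and 19.5 ± 0.409 CPM at mitosis in the haploid and the tetraploid (SD, n = 3 each). Stage shifts in the haploid and in the tetraploid, which share no library, were related by a Pearson's r of 0.54 (Spearman's rho 0.55) across the 2930 genes. Over all tested genes r was 0.886 for stage and 0.235 for ploidy, and the narrow range of the chosen genes bounds their own values. On TMM, 733 genes were called higher at mitosis in both forms, 318 lower in both, 168 opposite and 530 in neither, where the shares over all tested genes were 27.2%, 24.98%, 2.28% and 18.8%. With library totals the counts were 311, 777, 161 and 494, where the shares over all tested genes were 22.3%, 31.2%, 2.34% and 17.9%. The larger side thus turned with the scale here too.

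**Figure D5:**
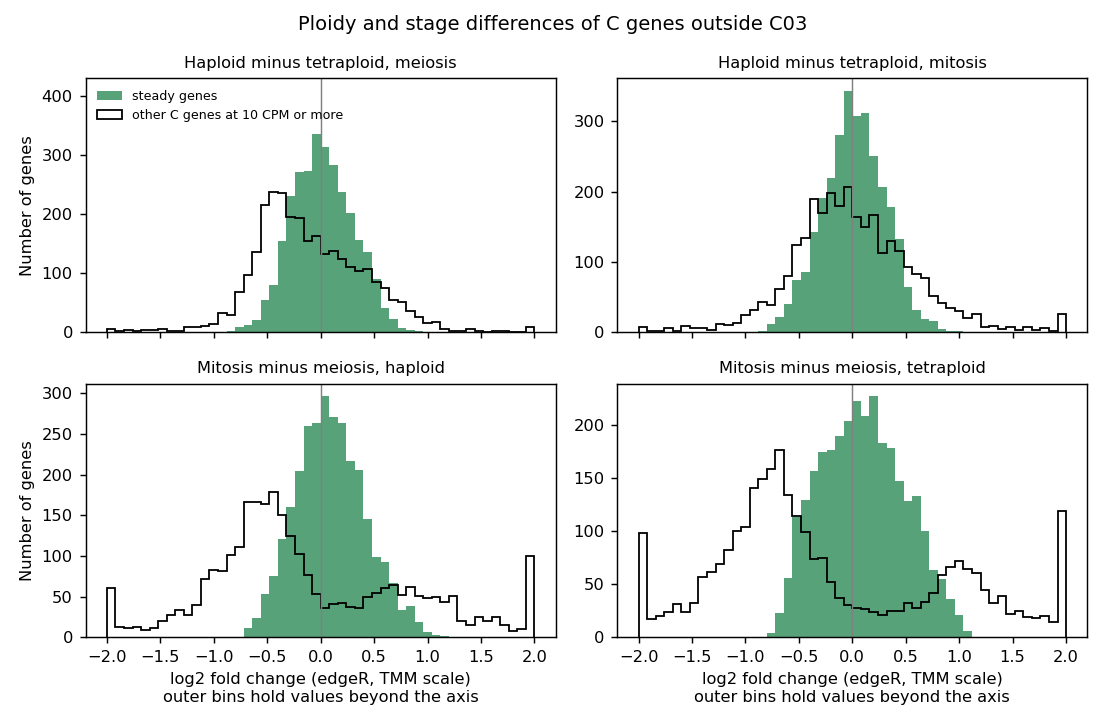
Number of genes by fitted log2 fold change (TMM scale), with steady genes filled in green and the other broadly expressed C genes outside C03 as a black outline, for haploid against tetraploid at each stage (top) and mitosis against meiosis in each form (bottom). The ploidy medians of the steady genes are 0.01 and 0.02 and the stage medians 0.08 and 0.09, and on column totals the stage medians are -0.12 and -0.08.

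The interaction gives the difference between the ploidy shift at mitosis and that at meiosis. For the steady genes it ran from -1.25 to 1.303 on the log2 scale, and 525 were called above 0 and 549 below, where 15.6% and 14.9% of all tested genes were called, or 30.5% in either direction. BcaC09g51598 had the highest value, 1.303 (SE 0.11), with 28.1, 27.2 and 29.7 CPM in haploid meiosis, 53.4, 45.1 and 46.9 in tetraploid meiosis, 39.4, 41.4 and 38.4 in haploid mitosis, and 28.1, 27.4 and 29.0 in tetraploid mitosis. Its tetraploid was the higher form at meiosis and the lower form at mitosis, with no overlap at either stage.

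BcaC06g31485 had the lowest interaction, -1.25 (SE 0.13). It had 27.1, 27.4 and 26.4 CPM in haploid meiosis, 16.2, 18.0 and 15.6 in tetraploid meiosis, 14.8, 15.9 and 15.5 in haploid mitosis, and 23.0, 22.0 and 23.9 in tetraploid mitosis. Here the haploid was the higher form at meiosis and the lower at mitosis. BcaC06g36627 followed at 1.19 (SE 0.11) and BcaC09g48790 at -1.09 (SE 0.11), and their forms also changed order without overlap. Genes that met the limit of 2 times could thus still cross between groups.

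Over the 4 pairwise comparisons, 243 of the 2930 genes (8.29%) were called in none and 353 (12.05%) in all, against 13.0% and 16.1% of all tested genes. The 243 uncalled genes had a median mean CPM of 19.0 and a median ratio of 1.44, with a within-group SD of 0.114 on the log2 scale. The range of their 4 group means had a median of 0.189 on the log2 scale, against 0.491 over all steady genes. They were both lower in counts and narrower in range, which the lack of a call itself favours, so nothing is read from it. The highest library of a gene was most often one of tetraploid meiosis (974 genes), and the lowest most often one of haploid mitosis (983 genes). On TMM-scaled sizes the highest was most often in haploid mitosis (928 genes) and the lowest in tetraploid meiosis (1004 genes). This order, too, turned with the scale.

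The files give no coordinates, so position was read from the order of the IDs. After a steady gene the next C gene was also steady in 8.81% of cases, against 6.11% after another gene. Among broadly expressed genes alone these shares were 50.5% and 49.7%. The closeness in the full order was therefore nearly absent among genes that reach 10 CPM in every library. The longest runs of adjacent tested genes were 4 genes, and 1 of the 5 runs of that length was BcaC02g07452 to BcaC02g07455.

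The 4 neighbours BcaC02g07452, BcaC02g07453, BcaC02g07454 and BcaC02g07455 did not all shift alike with stage. On TMM, their log2 fold changes for mitosis against meiosis, averaged over both forms, were 0.15, 0.15, 0.24 and -0.22 in that order. The SE were 0.06, 0.03, 0.08 and 0.07. Column totals differ from TMM by a median of -0.19 log2 in this comparison. BcaC02g07452 had 24.1 ± 1.04, 23.7 ± 2.76, 23.1 ± 1.58 and 23.6 ± 0.939 CPM in haploid meiosis, tetraploid meiosis, haploid mitosis and tetraploid mitosis (SD, n = 3 each), and its groups overlapped. BcaC02g07455 had 21.8 ± 2.08, 19.8 ± 1.27, 15.5 ± 1.78 and 15.7 ± 1.39 CPM in the same order, with its stages apart on column totals. On TMM its log2 fold changes for mitosis against meiosis were -0.29 (SE 0.11) in the haploid and -0.16 (SE 0.11) in the tetraploid, and the second was not called.

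In windows of 50 consecutive broadly expressed genes, the number of steady genes ran from 15 (BcaC01g04337 to BcaC01g04626) to 32, with a median of 25 over 114 windows. The value of 32 was reached by 3 windows, BcaC05g26572 to BcaC05g27027 on C05 and BcaC06g32885 to BcaC06g33246 and BcaC06g36223 to BcaC06g36750 on C06. In 113 windows of 25 consecutive steady genes, the median ploidy shift at meiosis ran from -0.17 to 0.28 on the log2 scale. Both ends lay on C05, from BcaC05g26006 to BcaC05g26382 and from BcaC05g27130 to BcaC05g27549. In the window at 0.28, 20 of 25 genes were above 0, and the median of these genes at mitosis was 0.11. The windows were picked as extremes, and these values carry no test.

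Since each library took part in the choice, the choice was repeated on 11 libraries with each library left out in turn. Between 2969 and 3039 genes met the limits on 11 libraries, and 96.4% to 98.7% of them still met the limits when the left-out library was added. The left-out value lay inside the range of the other 11 for 77.4% to 86.0% of genes. A library not used in the choice thus gave nearly the same set. Since 2 libraries of the same group remained in each such choice, this speaks of the repeat of a library, not of another condition.

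The limits cut through a continuous range of values. BcaC06g31423 and BcaC05g27056 were just inside 2 times, at ratios of 1.99985 and 1.99948, and BcaC08g44405 and BcaC05g29579 just outside, at 2.00028 and 2.00037. At the limit of 10 CPM, BcaC05g30541 and BcaC08g47190 had lowest values of 10.0031 and 10.0037 CPM, and BcaC04g19193 and BcaC04g19324 had 9.99541 and 9.99125 CPM. At the limit of 200 CPM, the lowest library of BcaC01g02837 had 196 CPM and that of BcaC01g00180 201. In the deposited FPKM, 2723 of the 2930 genes (92.9%) were also within 2 times, and 4 were listed at 0 in at least 1 library.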

How the data were processed

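RNA-seq libraries of anthers from 4 groups, 3 libraries each, were analysed from 2 tables that the authors deposited. The deposited counts are whole-number reads per gene, not normalised, as their values show. The deposited FPKM values cover these genes and libraries too, made by a tool not given in the sources used here. The submitters' processing notes name Bowtie2 2.2.3, HISAT2 2.1.0, TopHat2 and featureCounts 2.0.1, with no role or order. The sources used here give neither genome build nor annotation.

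From the counts, CPM on column totals was computed in Python 3.11.15 with pandas 2.3.3, and the limits of 10 CPM, 2 times and 200 CPM were applied. Differences were fitted in R 4.3.3 with edgeR 4.0.16: TMM factors, the default filter on low counts, 1 model over 12 libraries with 1 mean for each group, and two-sided quasi-likelihood tests, adjusted by Benjamini-Hochberg over 51860 genes. Calls were made where the adjusted p was under 0.05. All 2930 chosen genes passed the filter, which their minimum of 10 CPM assures. The SE of a log2 fold change is its size divided by the square root of F. The fit was tested on simulated counts with known changes in haploid meiosis. Recovery was scored only for haploid against tetraploid at meiosis, so it was not checked for stage, the interaction or the scaling.

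The genes, groupings and tests were chosen with earlier results of these data known. Named genes were taken by rank: the smallest ratio of highest to lowest CPM overall and on each chromosome, the 2 highest and 2 lowest by mean CPM, the 2 largest log2 fold changes in each direction of each comparison among genes whose groups did not overlap (not required for the interaction), those beside each limit, and the ends of the longest run of neighbours. BcaC05g24907 and the inner genes of that run were named after their values were seen. Planned lists of gene symbols and of cell type markers were not run, since the IDs have no names. Between libraries of a group, Pearson's r of log2 values across genes was 0.976 to 0.982, and the chi-square per gene was 2.52 to 3.08, so no 2 libraries matched within sampling noise.

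Alternatives were other scalings, DESeq2 1.42.0, no filter, limma 3.58.1 on log2 FPKM with a pseudocount of 1 or 0.1 where FPKM was at least 1 in 3 libraries, a replicate block, other limits, and each library left out in turn.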

Additional observations from a re-analysis of the deposited data

Results flagged for a closer look

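The ploidy shift differed between the stages for part of the steady genes, by the interaction term of the same edgeR fit. At an adjusted p under 0.05, 525 genes had a higher haploid-to-tetraploid difference at mitosis than at meiosis and 549 a lower one, where 30.5% of all tested genes were called in either direction. The choice used these libraries, so the counts are a description.

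Of the steady genes named in the text or picked by the naming rule, 21 had a called interaction. Many of the named genes were picked as extremes, some by the interaction itself, so nothing is read from this count. The positive values, as log2 differences of mitosis from meiosis, were 1.303 for BcaC09g51598, 1.19 for BcaC06g36627, 1.14 for BcaC08g43028, 1.103 for BcaC05g27819, 0.96 for BcaC07g39193 and 0.86 for BcaC05g25494. Smaller positive values were 0.75 for BcaC05g24668, 0.70 for BcaC08g47283, 0.49 for BcaC07g41199, 0.43 for BcaC02g07454 and 0.27 for BcaC02g09436.

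The negative values were -1.25 for BcaC06g31485, -1.09 for BcaC09g48790, -0.84 for BcaC04g20099, -0.83 for BcaC07g39890 and -0.62 for BcaC09g48402. Nearer to 0 were -0.56 for BcaC06g32045, -0.50 for BcaC02g08939, -0.41 for BcaC01g02837, -0.30 for BcaC04g20829 and -0.21 for BcaC01g02977. Of the genes just outside the limits, 2 also had a called interaction, at -0.68 for BcaC05g29579 and 1.21 for BcaC06g30793.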

How the results depend on the processing

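The number of steady genes followed the limits, at 882 with a limit of 1.5 times, 4804 with 3 times and 1554 with a minimum of 20 CPM. With TMM-scaled sizes 3180 genes met the limits, 2599 of them shared, and with FPKM 2310, 1868 of them shared. The share per chromosome then ran from 13.4% to 16.6% at 1.5 times and from 79.5% to 84.9% at 3 times. It ran from 10.7% to 13.0% when divided by tested genes. Counts at mitosis against meiosis turned with library totals and with FPKM. With median-of-ratios factors higher calls stayed the larger side, at 1047 and 599 in the haploid and 1247 and 725 in the tetraploid. With DESeq2 the counts were 960 and 536, and 1168 and 668. Over all genes, higher and lower shares were 33.1% and 30.7%, and 38.0% and 33.9%, with median-of-ratios factors. With DESeq2 these shares were 26.5% and 24.4%, and 30.7% and 26.3%. They are lower in part because they rest on 63554 genes in the haploid and 66417 in the tetraploid, against 51860 with median-of-ratios factors. In the haploid, higher and lower calls were 510 and 1208 with library totals, at a median log2 fold change of -0.1242. They were 440 and 1253, at -0.1445, with log2(FPKM + 1), and 438 and 1249, at -0.1523, with log2(FPKM + 0.1). Over all genes, 26.9% and 38.3%, 26.2% and 40.4%, and 26.0% and 39.9% were called in these settings. In the tetraploid the calls were 785 and 1182, at -0.0827, with library totals. Higher calls were 733, at -0.0839, and 731, at -0.0913, with the same FPKM settings. The higher share over all genes was 32.7% with library totals, and 32.2% and 31.8% with the FPKM settings. Library totals place the median log2 fold changes 0.20 and 0.17 lower than TMM by construction, and for FPKM the cause was not tested. The larger side of the ploidy calls at mitosis also turned with library totals (634 higher and 777 lower) and median-of-ratios factors (635 and 776). It turned with DESeq2 (560 and 719) and the FPKM settings (568 and 746, 566 and 747) as well. Over all genes, 21.3% and 26.0% were called with library totals and also with median-of-ratios factors. The shares were 16.0% and 20.5% with DESeq2, over 62122 genes. With the FPKM settings they were 21.1% and 26.2%, and 20.7% and 25.3%. With C03 left out before the fit the calls were 835 higher and 603 lower, where 22.4% and 24.2% of the genes left were called. At meiosis the calls were then 802 and 613, where 18.1% and 18.2% of the genes left were called. Shares of counts outside C03 were 11.8319%, 11.8404%, 11.1431% and 11.1481% in haploid meiosis, tetraploid meiosis, haploid mitosis and tetraploid mitosis. With each library left out in turn, higher calls ran from 636 to 751 and lower from 592 to 699 for ploidy at meiosis, and from 647 to 769 and 599 to 672 at mitosis. For stage they ran from 931 to 1073 and 501 to 581 in the haploid, and from 1092 to 1171 and 709 to 789 in the other form. Over all genes the called shares ran from 16.6% to 19.2% and 16.0% to 18.5% for ploidy at meiosis. At mitosis the shares ran from 20.1% to 23.0% and 22.0% to 24.3%. For stage the shares ran from 30.3% to 32.9% and 28.1% to 30.1% in the haploid. In the tetraploid they ran from 35.3% to 37.1% and 32.7% to 34.5%. Libraries with the same replicate number did not deviate together (correlations of -0.039 to 0.045 over 18 pairs), so no pairing by number was seen. Whether such libraries share a plant or a preparation cannot be told from these correlations. With the replicate block the higher and lower calls were 721 and 685 for ploidy at meiosis and 738 and 668 at mitosis. They were 1061 and 568 for stage in haploid anthers, 1169 and 770 in tetraploid anthers, and 510 and 534 for the interaction. Over all genes the shares were 18.9% and 18.3% for ploidy at meiosis and 22.7% and 24.0% at mitosis. For stage the shares were 32.9% and 30.0% in the haploid and 36.9% and 34.4% in the tetraploid. For the interaction the shares were 15.2% and 14.5%.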
